A study of Mus musculus with 15 samples.

Results

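The genes described here are 50 genes of DNA replication and S phase, taken as a list of symbols and matched to the counts table by Ensembl identifier. The list was chosen with earlier results of these data known. All 50 were among the 46078 gene identifiers of the table, and all 50 were among the 15152 genes with enough reads to be tested. The smallest count of any of them in any library was 215 reads, for Orc1. They were sorted by role into 10 genes of origin licensing, 9 of the replicative helicase and fork, 9 of the DNA polymerases, 8 of the sliding clamp and its loaders, 5 of single-stranded DNA binding and lagging-strand maturation, 4 of nucleotide supply and 5 regulators of S phase entry and histone supply.

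RNA was sequenced from B16-F10, an established mouse melanoma cell line, in 5 groups of 3 libraries. The question the design puts is how the transcriptome responds when EZH2, the catalytic subunit of the histone-methylating Polycomb complex PRC2, is inhibited or depleted. In 1 arm, cells received 2 µM DZNep (3-deazaneplanocin A, an inhibitor of S-adenosylhomocysteine hydrolase that lowers EZH2 protein and acts on methylation broadly), 2 µM GSK126 (a selective inhibitor of the EZH2 methyltransferase site) or DMSO, the vehicle. In the other arm, run in parallel, cells received siRNA against Ezh2 (siEzh2) or a scrambled control siRNA (scr). All 15 libraries come from this single unmodified line, and the labels give no treatment or transfection time. Nothing in them says whether the 3 libraries of a group came from separate cultures, so the p-values measure the spread between these libraries, which may be technical.

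DNA is copied once per cell cycle. In G1 the origin recognition complex, with CDC6 and CDT1, loads the MCM helicase onto origins, which licenses them. On entry into S phase, cyclin E and its partner kinase help turn the loaded MCM into the active CMG helicase by adding CDC45 and the GINS complex, and polymerases alpha, delta and epsilon, the PCNA clamp, the RFC clamp loader and the RPA single-strand binding complex then copy both strands while ribonucleotide reductase and thymidylate synthase supply deoxynucleotides. Transcription of many of these genes is driven by E2F factors at the G1 to S boundary, so their messenger RNA is abundant in cycling cells such as melanoma cells in culture. In bulk RNA, a larger share of cells in S phase and more RNA per S phase cell cannot be told apart.

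Library totals ran from 33299524 to 64545747 reads assigned to genes, and levels below are in CPM, counts per 1000000 reads of the library after TMM scaling, so that 1 read was worth 0.0154 to 0.0306 CPM. Ezh2, the siRNA target, stood at 37.6, 39.9 and 41.3 CPM in siEzh2 libraries, against 215, 227 and 215 CPM in scr libraries (log2 fold change -2.47 ± 0.05 SE, edgeR adjusted p = 1.22e-17). Ezh2 RNA averaged 155 ± 5.06 CPM with DZNep, 214 ± 6.81 CPM with GSK126 and 207 ± 2.66 CPM with DMSO (SD, n = 3 each). The 7 melanocyte markers summed to 18904 to 25625 CPM per library, the immune, endothelial and keratinocyte lists to at most 0.295 CPM, and the fibroblast list to 2.35 to 9.58 CPM. The library numbers in the labels place GSK126 replicate 1 beside the siRNA libraries and the other compound libraries together, so the GSK126 counts are also given without it. Library pairs within a group differed beyond counting noise, most where DMSO replicate 3 was compared with DMSO replicates 1 and 2 (chi-square per degree of freedom 38.8 and 26.7, against 9.07 between replicates 1 and 2) and scr replicate 1 with scr replicates 2 and 3 (36.3 and 28.5, against 8.71 between replicates 2 and 3).

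The promoters of these genes were read first for the letters of E2F-type sites, since E2F is the textbook regulator of the group. RefSeq windows of GRCm38.p6, from 250 bases before the annotated start to 50 after it, were at hand for 40 of the 50 genes (Ccne2, Dscc1, Gins1, Gins2, Gins4, Mcm4, Pole, Prim2, Rfc2 and Tipin have none). The letters TTTCCCGC, TTTGGCGC, TTTCGCGC or TTTGCCGC, on either strand, stood in 16 of the 40 windows (40%), against 2.61% of all 27025 genes with a window and 4.72% of the 10395 tested genes with one. By role they stood in 7 of 9 licensing windows, 4 of 7 polymerase windows, 2 of 5 helicase and fork windows, 1 of 6 clamp and loader windows, 1 of 5 of the RPA and Okazaki genes, 1 of 4 regulators and 0 of 4 nucleotide supply genes. The other motifs searched, also on both strands, gave smaller contrasts: CCAAT stood in 60% of its windows and in 43.0% of tested genes, the GC box letters GGGCGG in 75% and 68.7%, and the cell cycle homology letters TTTGAA in 12.5% and 14.1%. These are matches of letters and not measured binding. The 5 windows below belong to genes whose responses differ in the results, with DZNep set against DMSO and siEzh2 against scr. Cdc6 and Mcm5 rose with DZNep and fell with siEzh2, Cdt1 fell with siEzh2 alone among these comparisons, Pola1 fell in both, and Rrm2 rose with DZNep without the letters. Capitals mark the E2F-type letters, and each sequence runs 5′ to 3′ along the gene's strand.
Cdc6, chr11:98907901-98908200, plus strand: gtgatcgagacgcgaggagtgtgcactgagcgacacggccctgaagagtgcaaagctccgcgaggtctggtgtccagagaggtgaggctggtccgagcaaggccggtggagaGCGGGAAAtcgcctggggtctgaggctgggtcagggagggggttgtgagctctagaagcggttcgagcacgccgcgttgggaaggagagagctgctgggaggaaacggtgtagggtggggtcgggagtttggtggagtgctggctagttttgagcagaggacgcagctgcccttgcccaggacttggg
Mcm5, chr8:75109259-75109558, plus strand: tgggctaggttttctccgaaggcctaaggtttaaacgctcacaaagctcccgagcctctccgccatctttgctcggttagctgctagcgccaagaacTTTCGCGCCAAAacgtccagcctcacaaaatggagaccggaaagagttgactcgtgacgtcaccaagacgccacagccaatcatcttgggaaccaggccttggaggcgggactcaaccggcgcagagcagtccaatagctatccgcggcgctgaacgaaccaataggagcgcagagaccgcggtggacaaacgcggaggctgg
Cdt1, chr8:122567765-122568064, plus strand: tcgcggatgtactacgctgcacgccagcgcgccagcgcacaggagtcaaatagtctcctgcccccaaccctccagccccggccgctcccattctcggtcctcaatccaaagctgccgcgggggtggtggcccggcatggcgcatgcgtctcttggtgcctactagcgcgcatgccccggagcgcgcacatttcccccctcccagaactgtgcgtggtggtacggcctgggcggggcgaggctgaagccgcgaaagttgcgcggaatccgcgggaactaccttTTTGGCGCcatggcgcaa
Pola1, chrX:93632106-93632405, minus strand: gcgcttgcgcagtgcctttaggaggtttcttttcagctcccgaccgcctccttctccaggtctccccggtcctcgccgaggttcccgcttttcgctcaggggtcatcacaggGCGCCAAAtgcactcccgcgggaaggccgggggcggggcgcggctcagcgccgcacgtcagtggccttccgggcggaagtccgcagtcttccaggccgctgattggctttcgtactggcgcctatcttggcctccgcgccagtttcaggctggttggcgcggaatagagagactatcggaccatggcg
Rrm2, chr12:24708004-24708303, plus strand: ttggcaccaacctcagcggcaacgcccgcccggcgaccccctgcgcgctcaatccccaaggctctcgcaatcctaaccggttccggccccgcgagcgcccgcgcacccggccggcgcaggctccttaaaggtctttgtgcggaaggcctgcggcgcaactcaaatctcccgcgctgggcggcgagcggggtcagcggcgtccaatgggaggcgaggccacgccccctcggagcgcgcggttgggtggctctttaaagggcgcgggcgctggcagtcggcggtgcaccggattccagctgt
In Cdc6 and in Pola1 the single match begins 138 bases before the start, and in Cdt1 it begins 32 bases after it. In Mcm5 the capitals hold 2 overlapping matches, beginning 153 and 149 bases before the start. Starts here are those of RefSeq, and the gene coordinates given with the results are those of GENCODE M21 on GRCm38, whose starts can differ.

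Per kilobase of exon, the genes spanned a wide range of levels. In DMSO libraries, Rrm2, the regulated small subunit of ribonucleotide reductase, was the most abundant at 113 ± 7.32 RPKM (CPM divided by kilobases of exon, mean ± SD, n = 3). Next came Mcm2 at 58.2 ± 3.6, Pcna at 51.3 ± 4.98, Mcm4 at 48.3 ± 3.15, Mcm6 at 47.9 ± 4.02 and Mcm3 at 41.6 ± 1.07 RPKM, and the ranges of mean ± SD of neighbours in this order overlap except between Rrm2 and Mcm2 and between Mcm6 and Mcm3. The lowest were Orc1 at 2 ± 0.184, Dscc1 at 2.87 ± 0.0261, Gins2 at 3 ± 0.191 and Wdhd1 at 3.03 ± 0.123 RPKM, and the median gene stood at 12.3 RPKM. Length is that of all annotated exons merged, which understates genes with long intron-retaining transcripts.

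**Figure D1:**
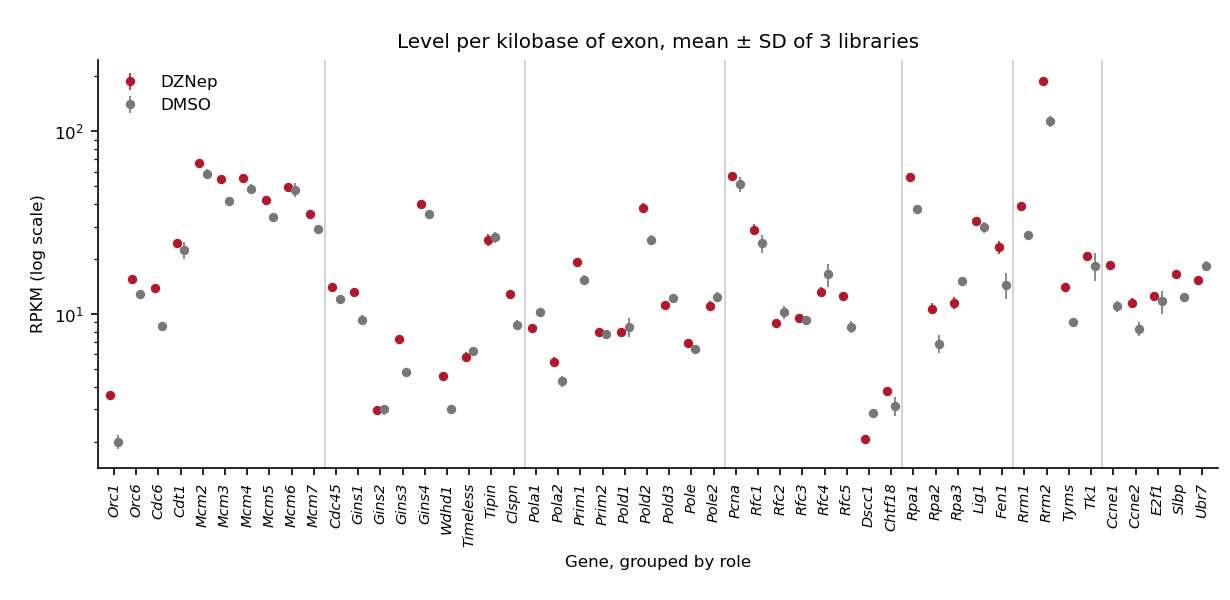
Level of each of the 50 genes per kilobase of merged exon (RPKM, log axis) with DZNep and with DMSO; points are means of 3 libraries and bars are SD. Rrm2 is the highest in both groups, and Orc1 the lowest with DMSO.

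DZNep raised most of the genes by modest amounts. Of the 50, 29 rose and 7 fell against DMSO (58% and 14%), where 31.2% of all tested genes rose and 31% fell, and the median log2 fold change was 0.23 against 0.00166 over all tested genes. The 50 genes together made up 4982 ± 46.3 CPM with DZNep, against 4025 ± 178 CPM with DMSO (SD, n = 3 each). The largest change was 1.82-fold, at Orc1. In licensing and the helicase and fork, 14 of 19 genes rose and 0 fell (0 also by DESeq2 and at an unadjusted p under 0.05), while subunits of the polymerase, clamp loader and RPA complexes went both ways. The edgeR adjusted p of the 36 calls ran from 3.02e-10 to 0.0293, and DESeq2 also called 29 higher and 7 lower. Mitochondrial transcripts took 7.18 ± 1.11% of reads with DZNep and 8.39 ± 0.497% with DMSO, and their part in these differences was not tested.

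**Figure D2:**
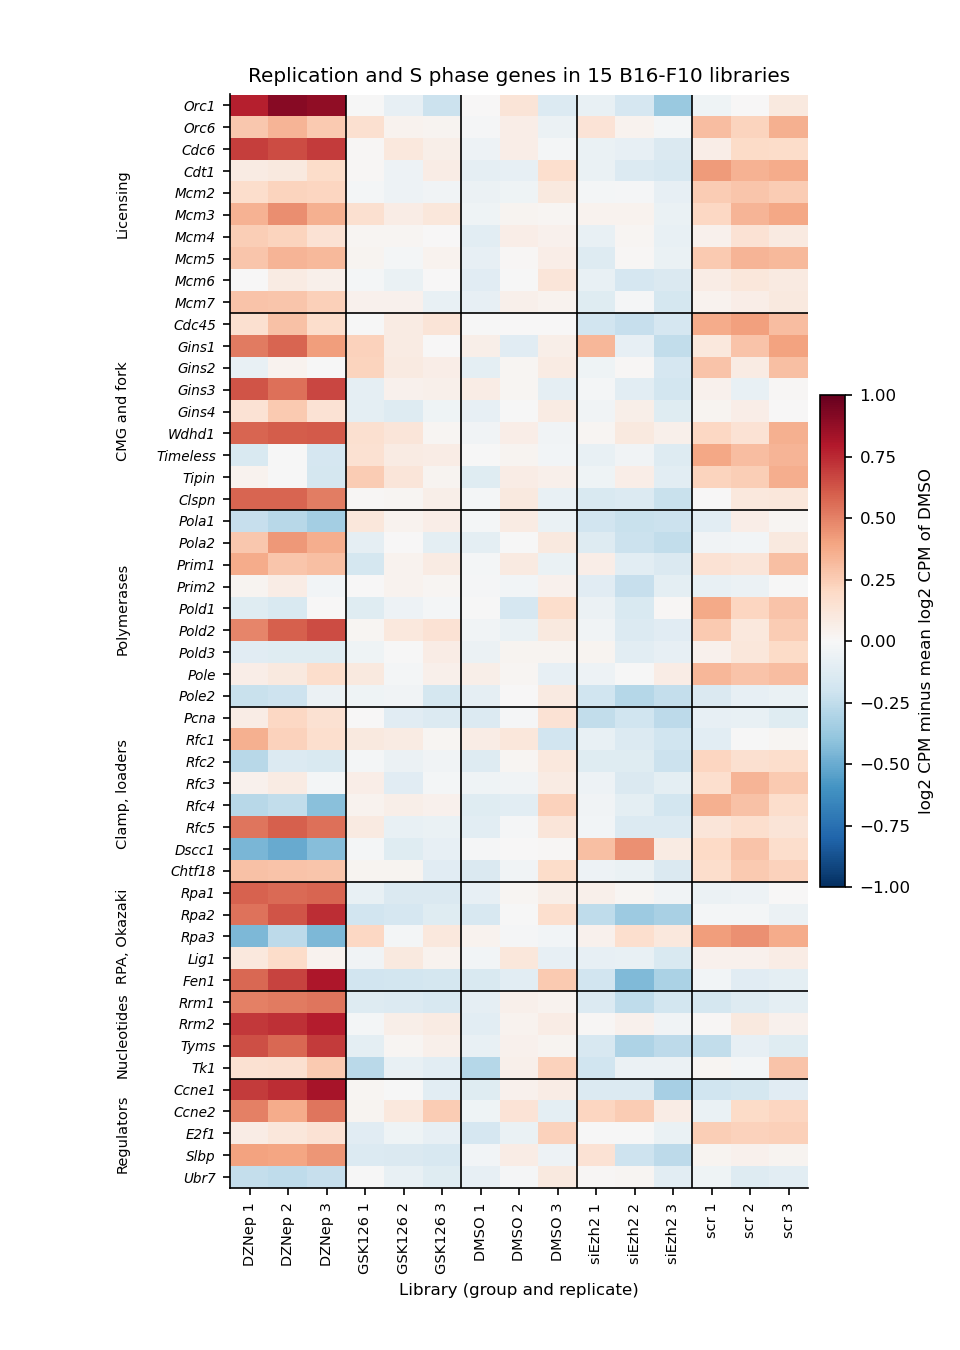
Each gene's log2 CPM in each of the 15 libraries, minus its mean over the DMSO libraries; rows are genes grouped by role, columns are libraries, red is higher and blue lower. The DZNep columns are red for most genes and blue for Pola1, Rfc4, Dscc1 and Rpa3, the GSK126 columns stay pale, and the scr columns are redder than the siEzh2 columns for most licensing and fork genes.

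Among the licensing genes, Cdc6, which brings MCM to the origin complex, had 72.7, 70.8 and 73.3 CPM in DZNep libraries, against 43.6, 47.2 and 44.6 CPM in DMSO libraries (1.6-fold higher, log2 fold change 0.68 ± 0.05, edgeR adjusted p = 6.88e-10; ENSMUSG00000017499, chromosome 11, 98907801 to 98923940, plus strand). Orc1, an ATP-binding subunit of the origin recognition complex, had 11.9, 13 and 12.8 CPM with DZNep and 6.93, 7.59 and 6.31 CPM with DMSO (1.82-fold higher, log2 fold change 0.86 ± 0.09, edgeR adjusted p = 6.38e-08). For both genes every DZNep library lay above every DMSO library, and Orc1 had the largest fold of the 50. Orc6 and 5 of the 6 MCM subunits rose less: Mcm3 by 0.39, Mcm5 by 0.31, Orc6 by 0.29, Mcm7 by 0.27, Mcm2 by 0.20 and Mcm4 by 0.20 on the log2 scale, with edgeR adjusted p between 3.4e-06 and 0.00248. Mcm6, the remaining subunit, had a log2 difference of 0.05 ± 0.05 (edgeR adjusted p = 0.493), and Cdt1, the MCM loading partner whose protein is destroyed in S phase, had 74.4, 75 and 79.6 CPM with DZNep and 66, 66.5 and 79.1 CPM with DMSO. The third DMSO library of Cdt1 reached the DZNep range, so the groups overlapped (edgeR adjusted p = 0.122, and 0.0021 without that library).

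Of the helicase and fork genes, Clspn, which encodes the checkpoint mediator claspin, rose to 93.3, 93.5 and 88.7 CPM with DZNep, against 61.4, 66.8 and 59.3 CPM with DMSO (log2 fold change 0.56 ± 0.05, edgeR adjusted p = 1.54e-08). Wdhd1, a fork protein that couples polymerase alpha to the helicase, had 33.3, 33.9 and 34.1 CPM with DZNep and 21.8, 23.3 and 21.7 CPM with DMSO (log2 fold change 0.60 ± 0.06, edgeR adjusted p = 4.54e-08). Neither gene's groups overlapped. The GINS subunits were unequal: Gins3 rose by 0.62 ± 0.07 and Gins1 by 0.50 ± 0.11, Gins4 by 0.18 ± 0.06 (edgeR adjusted p = 0.0102, and above 0.05 without DZNep replicate 2 or DMSO replicate 1, at 0.0648 and 0.0622), while Gins2 had a difference of -0.02 ± 0.08. Most exon bases of Gins2, 2758 of 4097, overlap Gse1 on the opposite strand, so its reads are uncertain. Cdc45, which completes the CMG helicase, rose by 0.21 ± 0.05 (edgeR adjusted p = 0.00167). The fork protection pair did not pass the test, with log2 differences of -0.11 ± 0.05 for Timeless and -0.05 ± 0.07 for Tipin.

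The polymerase genes divided within a complex. Pola1, the catalytic subunit of polymerase alpha, fell to 76.6, 74.2 and 71.2 CPM with DZNep, against 88.9, 95.3 and 86 CPM with DMSO (1.22-fold lower, log2 fold change -0.28 ± 0.05, edgeR adjusted p = 0.000122). The other subunits of the same complex, Pola2 and Prim1, rose by 0.35 ± 0.06 and 0.31 ± 0.07 on the log2 scale (edgeR adjusted p = 5.4e-05 and 0.000724), and Prim2 had a difference of 0.03 ± 0.05. Pola1 carries an E2F-type match at the same distance from its RefSeq start as Cdc6 in the sequences above, and the direction of the 2 genes with DZNep was opposite. Whether these letters bear on either gene's response was not tested. Pold2, the accessory subunit of polymerase delta, rose to 67.7, 73 and 75.8 CPM with DZNep, against 47.1, 46.1 and 51.5 CPM with DMSO (1.49-fold, log2 fold change 0.58 ± 0.06, edgeR adjusted p = 7.13e-08), with no overlap. The catalytic Pold1 and the Pold3 subunit did not pass, at -0.10 ± 0.07 and -0.12 ± 0.05. Pole2, a subunit of polymerase epsilon, was called lower at -0.16 ± 0.06 (edgeR adjusted p = 0.0293), but its libraries overlapped and the call was lost when any of 4 single libraries was left out (edgeR adjusted p between 0.0574 and 0.132) and in a fit of these groups alone (0.0712).

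Among clamp and loader genes, Rfc5, a small subunit of replication factor C, rose to 57.4, 59.6 and 57.8 CPM with DZNep, against 36.8, 39.1 and 42.9 CPM with DMSO (1.47-fold, log2 fold change 0.56 ± 0.06, edgeR adjusted p = 1.13e-07). Dscc1, a subunit of the cohesion-linked alternative loader, fell to 9.24, 8.96 and 9.44 CPM with DZNep, against 12.6, 12.7 and 12.8 CPM with DMSO (1.38-fold lower, log2 fold change -0.46 ± 0.08, edgeR adjusted p = 5.19e-05). Both genes separated the groups completely, in opposite directions. Chtf18, which works in the same alternative loader as Dscc1, rose by 0.27 ± 0.07, and the large subunit Rfc1 rose by 0.25 ± 0.07. Rfc4 and Rfc2, small subunits of the loader to which Rfc5 belongs, fell by 0.33 ± 0.08 and 0.19 ± 0.06 (edgeR adjusted p = 0.00172 and 0.00672). Pcna, the clamp itself, stood at 129, 142 and 136 CPM with DZNep and 112, 122 and 135 CPM with DMSO and did not pass (edgeR adjusted p = 0.0518).

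Replication protein A, which coats single-stranded DNA as a complex of 3 subunits, was divided as well. Rpa1, the large subunit, had 315, 309 and 313 CPM with DZNep and 198, 211 and 218 CPM with DMSO (1.49-fold higher, log2 fold change 0.58 ± 0.05, edgeR adjusted p = 2.65e-09). Rpa2, the middle subunit, had 29.9, 31.8 and 34.2 CPM with DZNep and 18.3, 20.5 and 23 CPM with DMSO (1.55-fold higher, log2 fold change 0.63 ± 0.07, edgeR adjusted p = 2.38e-07). The DZNep libraries of both subunits lay wholly above the DMSO libraries. Rpa3, the small subunit, had 12.5, 14.3 and 12.5 CPM with DZNep and 17.6, 17 and 16.8 CPM with DMSO (1.31-fold lower, log2 fold change -0.38 ± 0.07, edgeR adjusted p = 9.36e-05). Its DZNep libraries lay wholly below. Fen1, the flap nuclease that trims Okazaki fragments, rose 1.6-fold (log2 fold change 0.67 ± 0.09, edgeR adjusted p = 2.82e-06), although 2039 of its 2422 exon bases overlap other genes on the opposite strand, so that part of its reads may not be its own. Lig1, the ligase that joins the fragments, had a difference of 0.11 ± 0.06 and did not pass.

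Of the 4 nucleotide supply genes, 3 rose. Rrm2 had 511, 521 and 539 CPM with DZNep and 291, 321 and 329 CPM with DMSO (1.67-fold higher, log2 fold change 0.74 ± 0.05, edgeR adjusted p = 3.02e-10; ENSMUSG00000020649, chromosome 12, 24708241 to 24714146, plus strand). Tyms, thymidylate synthase, had 85.8, 81.7 and 89 CPM with DZNep and 52.3, 56.7 and 55.9 CPM with DMSO (1.56-fold higher, log2 fold change 0.64 ± 0.06, edgeR adjusted p = 1.17e-08). Every DZNep library exceeded every DMSO library for these genes and for Rrm1, the large subunit of the reductase, which rose by 0.52 ± 0.05. Tk1, the salvage thymidine kinase, had a difference of 0.18 ± 0.11 (edgeR adjusted p = 0.167) and overlapping libraries. Among the regulators, Ccne1, cyclin E1, had 47.5, 48.7 and 51.6 CPM with DZNep and 26.9, 30.1 and 30.8 CPM with DMSO (1.68-fold higher, log2 fold change 0.75 ± 0.06, edgeR adjusted p = 4.49e-09; ENSMUSG00000002068, chromosome 7, 38097984 to 38107534, minus strand). Ccne2, cyclin E2, rose by 0.47 ± 0.08 and Slbp, which binds the stem-loop of histone messages, by 0.41 ± 0.07, again without overlap. E2f1 itself stood at 38.5, 39.8 and 40.5 CPM with DZNep and 32.7, 35.1 and 43 CPM with DMSO and did not pass (edgeR adjusted p = 0.251), with DMSO replicate 3 above all DZNep libraries. Without that library E2f1, Pcna and Tk1 were called higher with DZNep (edgeR adjusted p = 0.00118, 0.00208 and 0.0217), and the count of the 50 genes was 33 higher and 6 lower. Ubr7, a protein of the UBR box ubiquitin ligase family, had 50.3, 49.96 and 50.6 CPM with DZNep and 56.2, 58.8 and 63.5 CPM with DMSO (log2 fold change -0.24 ± 0.05, edgeR adjusted p = 0.000684), the 1 regulator that fell.

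**Figure D3:**
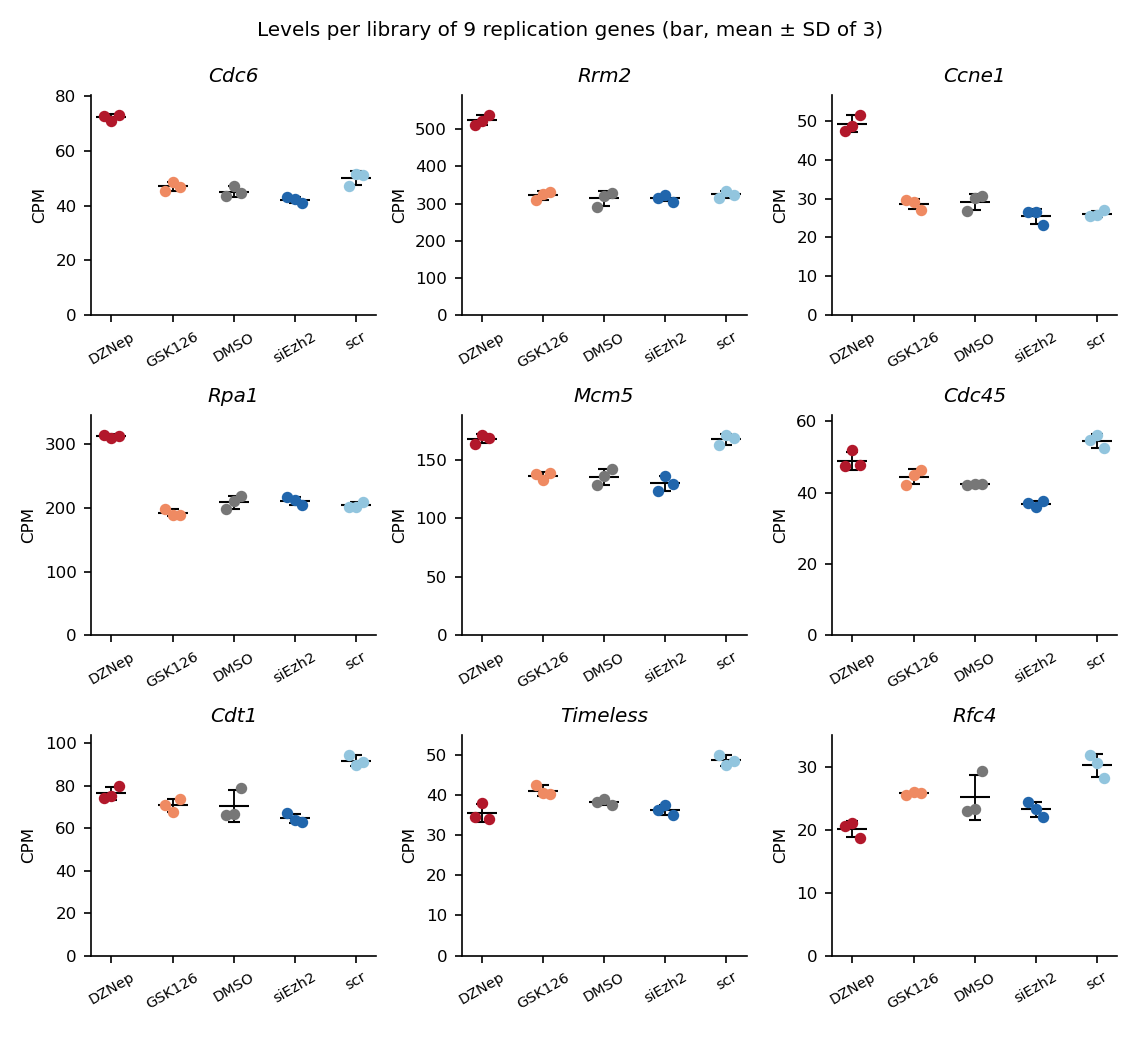
CPM of 9 genes in every library, 1 point a library, with DZNep, GSK126, DMSO, siEzh2 and scr from left to right in each panel and bars for mean ± SD. Cdc6, Rrm2, Ccne1 and Rpa1 are set apart by the DZNep libraries. Mcm5, Cdc45, Cdt1, Timeless and Rfc4 show scr libraries above siEzh2 libraries, and of these only Cdc45 was called lower in siEzh2 against DMSO. The patterns overlap: Cdc6 was also called lower in siEzh2 against scr, and Mcm5 and Cdc45 higher with DZNep.

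Knockdown of Ezh2 went with lower levels of most of the genes. Against scr, 30 of the 50 fell (60%) and 0 rose, where 12.9% of all tested genes fell and 13.2% rose (0 rose at an unadjusted p under 0.05, at which 36 fell, and 0 by DESeq2, which called 29 lower). The median log2 fold change was -0.23, against -0.0112 over all tested genes, the edgeR adjusted p of the 30 calls ran from 1.27e-07 to 0.0465, and the 50 genes summed to 3793 ± 87.9 CPM in siEzh2 libraries and 4335 ± 76.6 CPM in scr libraries (SD, n = 3 each). The lower genes were 8 of 10 in licensing, 6 of 9 in the helicase and fork, 7 of 9 polymerase genes, 5 of 8 clamp and loader genes and 3 of 5 RPA and Okazaki genes. Of the 4 nucleotide supply genes none passed, also at an unadjusted p under 0.05 and by DESeq2, and of the 5 regulators only E2f1 did. Mitochondrial transcripts took 8.04 ± 0.818% of reads in siEzh2 libraries and 8.87 ± 1.83% in scr libraries, and their part in this was not tested.

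Against scr, Cdc45 changed most with knockdown, with 37.1, 36.1 and 37.7 CPM in siEzh2 libraries and 54.7, 56.2 and 52.4 CPM in scr libraries (1.47-fold lower, log2 fold change -0.56 ± 0.05, edgeR adjusted p = 1.27e-07, ENSMUSG00000000028, chromosome 16, 18780447 to 18811987, minus strand). Cdt1 had 67.1, 64 and 62.9 CPM in siEzh2 libraries and 94.5, 89.5 and 91 CPM in scr libraries (1.42-fold lower, log2 fold change -0.50 ± 0.06, edgeR adjusted p = 4.64e-06; ENSMUSG00000006585, chromosome 8, 122568015 to 122573554, plus strand). Timeless had 36.4, 37.5 and 35.1 CPM in siEzh2 libraries and 50.1, 47.6 and 48.5 CPM in scr libraries (1.34-fold lower, log2 fold change -0.43 ± 0.05, edgeR adjusted p = 5.8e-06). None of these 3 genes had overlapping groups, and 2 of the 3, Cdt1 and Timeless, had not passed with DZNep. Rfc4 had 24.4, 23.3 and 22 CPM in siEzh2 libraries and 32, 30.6 and 28.3 CPM in scr libraries (log2 fold change -0.38 ± 0.08, edgeR adjusted p = 0.00134). Mcm5 had 124, 137 and 129 CPM in siEzh2 libraries and 163, 172 and 169 CPM in scr libraries (1.29-fold lower, log2 fold change -0.37 ± 0.05, edgeR adjusted p = 1.63e-05). The other MCM subunits that fell were Mcm3 (-0.31), Mcm2 (-0.30), Mcm6 (-0.22) and Mcm7 (-0.17) on the log2 scale, with Cdc6 at -0.25 and Orc6 at -0.24. Tipin, the partner of Timeless, fell by 0.30 ± 0.07, and Gins2, Clspn and Wdhd1 fell as well, with log2 fold changes of -0.29, -0.24 and -0.18. Of the genes in this paragraph, only Cdc45 and Clspn were also called lower with siEzh2 set against DMSO. In that setting Fen1 and Rpa2 were the lowest of the 50.

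Against scr, catalytic polymerase subunits were among the lower genes. Pole, the catalytic subunit of polymerase epsilon, had 69, 71.3 and 75.2 CPM in siEzh2 libraries and 89.8, 87 and 88.5 CPM in scr libraries (log2 fold change -0.30 ± 0.05, edgeR adjusted p = 0.00023). Pold2 had 47.1, 43.8 and 44.6 CPM in siEzh2 libraries and 57.9, 51.8 and 57.5 CPM in scr libraries (log2 fold change -0.30 ± 0.06, edgeR adjusted p = 0.000865). Both separated the groups, and Pold2 is a gene that rose with DZNep. Pold1 fell by 0.36 ± 0.07, and Prim1, Pola1, Pola2 and Pold3 fell by smaller steps, with log2 fold changes of -0.25, -0.20, -0.20 and -0.17. In the clamp loader, Rfc2 had 58.7, 58.9 and 55.2 CPM in siEzh2 libraries and 74.4, 71.4 and 72.4 CPM in scr libraries (log2 fold change -0.34 ± 0.06, edgeR adjusted p = 0.000174). Rfc3 had 32.4, 30.4 and 31.4 CPM in siEzh2 libraries and 37.7, 42.5 and 40.1 CPM in scr libraries (log2 fold change -0.35 ± 0.06, edgeR adjusted p = 0.000186). Their siEzh2 libraries lay wholly below the scr libraries, and Chtf18 and Rfc5 were lower too, with log2 fold changes of -0.31 and -0.24. Rpa3 had 17.6, 19.2 and 18.4 CPM in siEzh2 libraries and 22.8, 23.5 and 22.1 CPM in scr libraries (log2 fold change -0.31 ± 0.07, edgeR adjusted p = 0.00196), and Rpa2 fell by 0.28 ± 0.07, while Rpa1 had a difference of 0.05 ± 0.05. E2f1 had 36.6, 36.6 and 35 CPM in siEzh2 libraries and 43.5, 43.1 and 43.1 CPM in scr libraries (log2 fold change -0.26 ± 0.07, edgeR adjusted p = 0.0100). Pole, Pold1, Pold2, Rfc2, Rfc3, Chtf18, Rpa3 and E2f1 were also called higher in scr than in DMSO libraries. None of them was called in siEzh2 against DMSO, whereas Pola1, Pola2 and Rpa2 were called lower there too. Pole, for example, averaged 71.9 CPM in siEzh2, 88.5 CPM in scr and 71.6 CPM in DMSO libraries. Among the genes with a promoter window, E2F-type letters stood in 12 of 26 that fell with siEzh2 (46.2%) and in 4 of 14 that did not (28.6%), and in 7 of 25 that rose with DZNep (28%), 3 of 5 that fell (60%) and 6 of 10 that did neither (60%).

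The scr libraries themselves differed from the DMSO libraries in these genes. Against DMSO, 21 of the 50 were higher in scr libraries and 1, Rrm1, was lower, where 12.2% of all tested genes were higher and 13.6% lower, and the median log2 difference was 0.11. Rpa3 was furthest from DMSO, at 0.42 ± 0.07 (edgeR adjusted p = 0.00012). Cdc45 stood at 0.36 ± 0.05, Cdt1 at 0.38 ± 0.06, Timeless at 0.35 ± 0.05 and Mcm5 at 0.31 ± 0.05 above DMSO on the log2 scale, with edgeR adjusted p of 2.98e-05, 0.000131, 6.35e-05 and 0.00013. Set against DMSO in place of scr, siEzh2 libraries had 11 of the 50 lower and 1, Dscc1, higher (7.76% lower and 6.41% higher over all tested genes), with a median of -0.10. In that setting Cdt1 was at -0.13 ± 0.06, Timeless at -0.08 ± 0.05 and Mcm5 at -0.06 ± 0.05, none of which passed, while Cdc45 passed at -0.20 ± 0.05 (edgeR adjusted p = 0.0174). The genes lowest against DMSO were Fen1 at -0.33 ± 0.09 and Rpa2 at -0.33 ± 0.07, followed by Tyms at -0.25 ± 0.06 and Pole2 at -0.24 ± 0.06. Both contrasts share the siEzh2 libraries, and scr and DMSO differ in arm as well as in reagent, so the 2 cannot be told apart. The scr against DMSO count was 13 without scr replicate 1 or scr replicate 3 and 14 without DMSO replicate 2. Marker lists moved with these groups too: the melanocyte list summed to 24070 to 25531 CPM in siEzh2 libraries, 18904 to 19999 CPM in scr libraries and 25278 to 25625 CPM in DMSO libraries. The fibroblast list of 4 genes, nearly all of it Pdgfra, summed to 4.98 to 5.35 CPM in siEzh2 libraries, 2.35 to 2.97 CPM in scr libraries and 7.82 to 8.95 CPM in DMSO libraries. Their part in the differences was not tested.

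**Figure D4:**
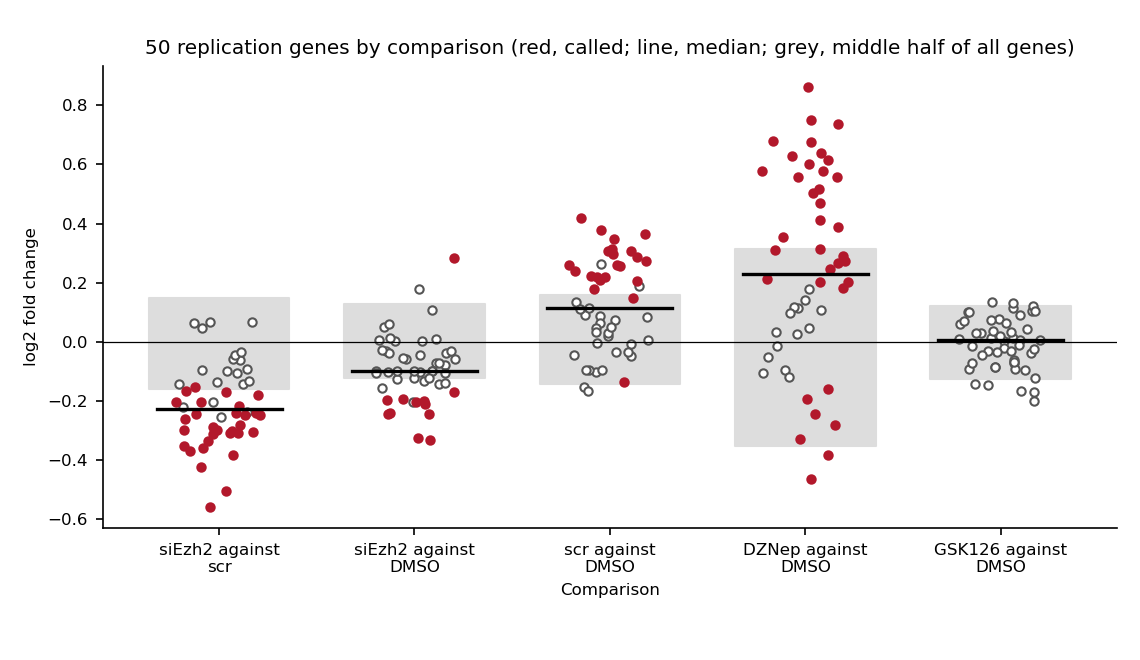
Log2 fold changes of the 50 genes in 5 comparisons, 1 point a gene (red, called; line, median; grey, interquartile range of all tested genes): siEzh2 against scr, siEzh2 against DMSO, scr against DMSO, DZNep against DMSO and GSK126 against DMSO. The medians are -0.23, -0.10, 0.11, 0.23 and 0.00459, and points of comparisons that share libraries are not independent.

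With GSK126 at the same 2 µM, none of the 50 genes passed against DMSO, where 7.15% of all tested genes were higher and 5.54% lower. At an unadjusted level, 4 had a p under 0.05, all lower, and DESeq2 called 1, Rrm1, lower. Log2 differences ran from -0.20 to 0.13, with SEs of 0.048 to 0.116, around a median of 0.00459. The genes summed to 3982 ± 11.9 CPM with GSK126 and 4025 ± 178 CPM with DMSO (SD, n = 3 each). Cdc6, for example, had 45.5, 48.6 and 47 CPM with GSK126 and 43.6, 47.2 and 44.6 CPM with DMSO, and Rrm2 had 309, 326 and 331 CPM with GSK126 and 291, 321 and 329 CPM with DMSO. The libraries of the groups overlapped for both genes. The largest difference was at Fen1, with 30.4, 30.6 and 30.8 CPM with GSK126 and 31.3, 32.3 and 41.6 CPM with DMSO (log2 fold change -0.20 ± 0.09, edgeR adjusted p = 0.158). Without DMSO replicate 1, 5 genes were called lower (Rpa1, Rpa2, Fen1, Rrm1 and Tk1), and without GSK126 replicate 1 none was, while the count over all genes was 1229 without it and 1923 with it. Without GSK126 replicate 2 or replicate 3 none was called either, and the count over all genes was 1183 and 1203.

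Compared directly at the same dose, 1 pair of compounds, DZNep libraries had 32 of the 50 genes higher and 9 lower than GSK126 libraries, where 32.9% of all tested genes were higher and 31.7% lower, and the median log2 difference was 0.25. Without GSK126 replicate 1 the counts were 29 and 7, without replicate 2 they were 32 and 7, and without replicate 3 they were 30 and 7. Cdc6 differed by 0.62 ± 0.05 (edgeR adjusted p = 2.36e-09), Rrm2 by 0.70 ± 0.05 (edgeR adjusted p = 5.54e-10) and Ccne1 by 0.79 ± 0.07 (edgeR adjusted p = 2.32e-09). This shares the DZNep libraries with the comparison against DMSO and adds no independent evidence to it.

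The DZNep and siEzh2 comparisons share no library. Of the 50 genes, 15 rose with DZNep and fell with siEzh2: Orc6, Cdc6, Mcm2, Mcm3, Mcm5, Mcm7, Cdc45, Wdhd1, Clspn, Pola2, Prim1, Pold2, Rfc5, Chtf18 and Rpa2. Another 4, Pola1, Rfc2, Rfc4 and Rpa3, fell in both, and no gene rose in both. A further 14 rose with DZNep alone among these, 11 fell with siEzh2 alone, 3 fell with DZNep alone (Pole2, Dscc1 and Ubr7) and Pcna, Prim2 and Tk1 passed in neither. All of these counts set siEzh2 against scr and depend on that control. Against DMSO, siEzh2 libraries were called lower only for Cdc45, Clspn, Pola2 and Rpa2 of the 15 genes and only for Pola1 of the 4. The difference between the DZNep effect and the siEzh2 effect, tested in the same model, was called positive for 41 genes and negative for 2, Dscc1 and Ubr7 (25.3% and 25.8% of all tested genes), with a median of 0.47 on the log2 scale. It was 0.93 ± 0.07 for Cdc6, 0.88 ± 0.09 for Pold2, 0.91 ± 0.10 for Rpa2 and 1.08 ± 0.13 for Orc1 (edgeR adjusted p between 3.51e-09 and 1.08e-06). The part that scr against DMSO plays in this difference was not tested, and scr libraries summed to 4335 ± 76.6 CPM where DMSO libraries summed to 4025 ± 178 CPM (SD, n = 3 each). The siEzh2 effect minus the GSK126 effect was called negative for 19 genes and positive for 0 by edgeR (10.5% and 10.1% of all tested genes), with 1 positive at an unadjusted p under 0.05 and 1 by DESeq2, Rpa1, and with a median of -0.19. Its largest values were at Cdc45 (-0.63 ± 0.07), Timeless (-0.53 ± 0.08) and Cdt1 (-0.51 ± 0.09). Across the 50 genes the DZNep and siEzh2 log2 fold changes had Pearson r = 0.174 and Spearman rho = 0.235, against r = 0.229 over all 15152 genes, given as a description of genes that share libraries within each comparison.

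**Figure D5:**
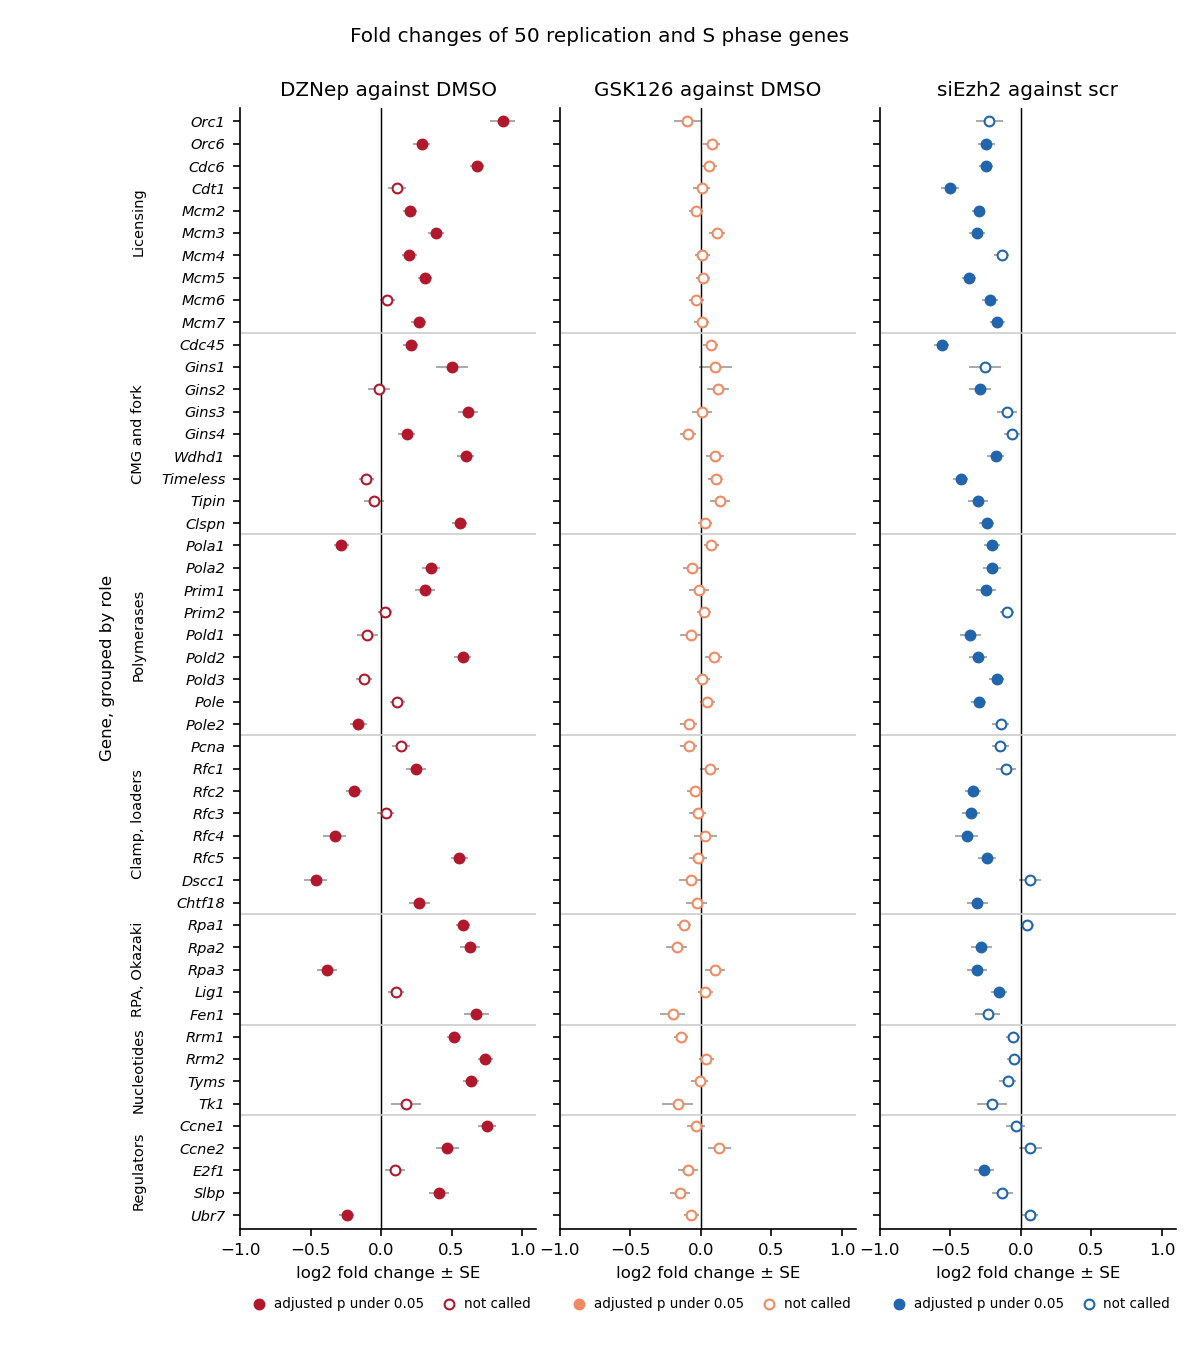
Log2 fold change ± SE of every gene, grouped by role, for DZNep against DMSO, GSK126 against DMSO and siEzh2 against scr; filled points have an edgeR adjusted p under 0.05. Filled points lie mostly right of 0 with DZNep (29 of 36), none is filled with GSK126, and all 30 lie left of 0 with siEzh2.

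Counts in other gene lists are to be read against the shares of all tested genes given above, 31.2% higher and 31% lower with DZNep, 7.15% and 5.54% with GSK126, and 13.2% and 12.9% with siEzh2, and no list was tested against them. Of 39 other replication genes, 26 rose and 4 fell with DZNep, led by Mcm10 (0.71 ± 0.05), which helps activate the helicase, and the histone chaperone subunit Chaf1a (0.65 ± 0.05), with Orc4 (-0.42 ± 0.05) first among those that fell. In the same list 5 rose and 13 fell with siEzh2 against scr, with the helicase Recql4 at -0.51 ± 0.07 and Pole3, a small polymerase epsilon subunit, at 0.44 ± 0.07. Both named genes had moved the other way in scr libraries against DMSO, Recql4 at 0.58 ± 0.07 and Pole3 at -0.42 ± 0.07. Set against DMSO, siEzh2 libraries had 2 of the 39 higher and 5 lower. With GSK126, 0 of the 39 passed (4 at an unadjusted p under 0.05, 0 by DESeq2). Of 23 other nucleotide supply genes, 12 rose and 6 fell with DZNep, with Cad, which starts pyrimidine synthesis, at 0.86 ± 0.06 and the mitochondrial kinase Dguok at -0.85 ± 0.07, and 11 fell with siEzh2, Cad among them at -0.32 ± 0.06. With GSK126, 2 of the 23 rose and 2 fell, among them Ctps at 0.21 ± 0.06 and Impdh2 at -0.32 ± 0.09. The wider supply list thus had calls with siEzh2 against scr although Rrm1, Rrm2, Tyms and Tk1 did not. Against DMSO, siEzh2 libraries were called lower for Rrm1 (-0.19) and Tyms (-0.25), and for 7 of the 23 genes.

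Of 32 tested genes of G1 to S control, 17 rose and 9 fell with DZNep. The largest of the named genes was Cdkn1a, the CDK inhibitor p21, which rose 5.65-fold (log2 fold change 2.50 ± 0.07, edgeR adjusted p = 1.1e-16) in the same libraries in which Ccne1 and Cdc6 rose. Ccnd1, cyclin D1, rose by 1.22 ± 0.06 and Cdkn1b fell by 0.49 ± 0.06. With GSK126, 4 of this list rose and 4 fell, with Ccnd1 at 0.51 ± 0.06. With siEzh2 against scr 6 rose and 12 fell, with the CDK inhibitor Cdkn1c at -2.14 ± 0.22 and Ccnd3 at -0.53 ± 0.06. Set against DMSO, siEzh2 libraries had 4 of this list higher and 5 lower. The fall of Cdkn1c is against a raised control: it stood at 2.78 ± 0.23 in scr libraries against DMSO (edgeR adjusted p = 2.15e-08) and at 0.64 ± 0.29 in siEzh2 libraries against DMSO (edgeR adjusted p = 0.147). Of 16 replication checkpoint genes, 9 rose and 2 fell with DZNep, led by Brca1, a gene of recombination repair, at 1.18 ± 0.06, with the kinases Chek2 at 0.70 ± 0.05 and Atr at -0.44 ± 0.07. In that list 1, Brca1, rose with siEzh2, at 1.08 ± 0.06 against scr and 0.40 ± 0.06 against DMSO, with scr itself at -0.69 ± 0.06 against DMSO, and 7 fell against scr, with the kinase Chek1 at -0.39 ± 0.05. Chek1 stood at 0.23 ± 0.05 in scr libraries against DMSO. Set against DMSO, siEzh2 libraries had 1 of the list higher and 0 lower by edgeR (4 in either direction at an unadjusted p under 0.05, 2 by DESeq2). With GSK126, 1 fell, Brca1 again, at -0.60 ± 0.06. Of 25 genes of G2 and mitosis, 22 rose with DZNep, at a median log2 fold change of 0.44, with the phosphatase Cdc25b at 1.12 ± 0.05 and the transcription factor Foxm1 at 0.80 ± 0.05. With siEzh2 against scr, 5 of the 25 fell, with Cdc25b at -0.36 ± 0.05 and the topoisomerase Top2a at -0.21 ± 0.05. Cdc25b stood at 0.24 ± 0.05 in scr libraries against DMSO. Set against DMSO, siEzh2 libraries had 10 of the 25 lower and 0 higher, at a median of -0.14, where the median against scr was -0.07. With GSK126 1, Cdc20, was lower at -0.28 ± 0.07. Mitotic and replication genes thus both rose with DZNep, and whether the rise differs between the lists was not tested.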

How the data were processed

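RNA from 15 B16-F10 libraries was measured as read counts per gene. Reads were aligned with STAR and counted with featureCounts against GRCm38, per the submitters' processing notes, without versions. No source at hand states the strand setting. The authors deposited 1 table of raw counts for 46078 Ensembl identifiers, of which 45229 matched GENCODE M21. From it, genes were filtered with filterByExpr and scaled by TMM, and 15152 genes were fitted over all 15 libraries, with 1 term a group, by edgeR 4.0.16's quasi-likelihood test (R 4.3.3). P-values were adjusted by Benjamini-Hochberg over all genes, and a call needs an adjusted p under 0.05. An error beside a log2 fold change is its SE, computed from the F statistic, and an error beside a CPM or RPKM mean is an SD. The common dispersion was 0.00409, a biological coefficient of variation of 6.40%. Library pairs within groups differed by more than counting noise, so each library counts once. The script was tested on simulated counts. Alternatives were DESeq2 1.42.0, other scalings, no filter, the compared groups alone, a replicate block, each library left out in turn, and siEzh2 against DMSO. The members, their roles and the other gene lists were chosen with earlier results of these data known. Within each role, the called genes with the smallest p in each direction and those called in more than 1 of the 3 main comparisons are given with values. Genes whose exons overlap a neighbour's, and pairs on opposite strands, may share reads: besides Fen1 and Gins2, this touches 952 exon bases of Rfc2, 609 of Ccne2, 557 of Mcm7 and shorter stretches in 16 further genes of the 50.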

Additional observations from a re-analysis of the deposited data

Results flagged for a closer look

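Members for which the DZNep effect against DMSO differed from the siEzh2 effect against scr numbered 43 of 50 by a test of that difference in edgeR (41 with the DZNep effect higher, 2 with it lower, against 25.3% higher and 25.8% lower over all tested genes). Members for which the siEzh2 effect differed from the GSK126 effect numbered 19 of 50, all with the siEzh2 effect lower (10.5% lower and 10.1% higher over all tested genes). Both sets were picked out because effects of 2 treatments, each against its own control, differed in a direct test. Groups of 3 libraries are too small for an outlier test of single values.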

How the results depend on the processing

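In the 3 main comparisons and scr against DMSO, no called gene of the 50 changed sign under any alternative that kept the control. With DMSO in place of scr, some genes called lower with siEzh2 did change sign. Rpa3 averaged 18.4 CPM in siEzh2, 22.8 CPM in scr and 17.1 CPM in DMSO libraries, and Orc6 averaged 32.7, 38.8 and 31.6 CPM in the same order. No median but that of GSK126 against DMSO changed sign. That median, 0.00459, was -0.00283 without the filter, -0.000870 with the compared groups only and -0.0384 without DMSO replicate 1. The DZNep count of 36 ran from 35 to 39 with single libraries left out, and 34 of its 36 calls held in every alternative (the exceptions were Gins4 and Pole2), while 9 of its 14 uncalled genes were called in some alternative. For siEzh2 against scr, 21 of 30 calls held in every alternative that kept scr as the control. Those lost in some of these were Mcm7, Gins2, Wdhd1, Pola1, Pola2, Prim1, Pold3, Lig1 and E2f1. The siEzh2 count ran from 22 to 30 and its median log2 fold change from -0.264 to -0.180 with single libraries left out. Against DMSO in place of scr the siEzh2 count was 12 and the median -0.0993. Of the 30 genes called lower against scr, only Cdc45, Clspn, Pola1, Pola2 and Rpa2 were also called lower against DMSO. For scr against DMSO, 10 of 22 calls held in every alternative, the count was 14 with the compared groups only and it ran from 13 to 21 with single libraries left out. The GSK126 count was 1 without the filter, 1 by DESeq2, and 0 to 5 with single libraries left out. Over all genes, GSK126 gave 1923 calls, 1131 with the compared groups only and 1183 to 2490 with single libraries left out. The count for DZNep against GSK126 ran from 36 to 39, for the DZNep effect minus the siEzh2 effect from 38 to 44, and for the siEzh2 effect minus the GSK126 effect from 17 to 24. The cause of these shifts was not tested.

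The labels do not say whether replicate numbers pair libraries across groups. Over 30 same-numbered pairs, the correlation of deviations from the group means ran from -0.176 to 0.243, with a median of 0.0209. Deviations within a group of 3 libraries sum to 0, so these values do not settle the question. With the replicate block, the members called were 37 for DZNep against DMSO, 0 for GSK126 against DMSO, 32 for siEzh2 against scr, 20 for scr against DMSO, 41 for DZNep against GSK126, 42 for the DZNep effect minus the siEzh2 effect and 20 for the siEzh2 effect minus the GSK126 effect. Every library held at least 215 reads for each of these genes, and whether depth limits the precision for those with fewer reads was not tested. Having 3 libraries a group also limits the precision.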
